A study of Homo sapiens with 6 samples.

Results

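The genes described here encode the enzymes that attach palmitate to proteins and take it off again. The list held 34 genes chosen by name: 22 ZDHHC acyltransferases, 3 accessory proteins (GOLGA7, GOLGA7B and SELENOK) and 9 acyl-protein thioesterases. Of the 27394 genes in the table, 33 were members, and all 33 averaged 1 or more across the 6 libraries, the limit for testing, which 22189 genes passed. ZDHHC15 was not analysed here. Bulk RNA-seq was made from PANC-1 cells, an established human pancreatic ductal carcinoma line, in 3 shControl libraries, which served as the shRNA control, and 3 shZDHHC20 libraries, in which ZDHHC20 was silenced by shRNA. Both groups went through the same transfection and infection and carried no other labelled change, and neither the labels nor the methods say which hairpin was used. The column headers name the same groups NC and siZDHHC20. The labels do not say whether replicates were separate cultures, so p-values measure only the spread between these libraries.

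S-palmitoylation is the attachment of palmitate to a cysteine of a protein through a thioester bond, which holds the protein on a membrane. Each ZDHHC enzyme is a multipass membrane protein that takes palmitate from palmitoyl-CoA onto the cysteine of its Asp-His-His-Cys motif and passes it to the substrate. Thioesterases hydrolyse the bond, so the modification can be reversed, and proteins such as RAS GTPases cycle between membranes in this way. ZDHHC20 is known to modify EGFR and IFITM3, and the study examined it as the enzyme of YTHDF3 in pancreatic cancer cells. The comparison addresses how the mRNA of the other enzymes stood when ZDHHC20 was silenced.

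The catalytic codons of 6 of the 7 acyltransferases whose mRNA passed the test are shown because they mark what the genes share. Those of ZDHHC2, the other called gene, are not printed here. Each line gives 30 bases of coding sequence, 5′ to 3′, from GENCODE 29 on GRCh38, with the 12 bases of the Asp-His-His-Cys codons in capitals. Where a span is longer than 30 bases, an intron lies within it.
ZDHHC20, cysteine at codon 156, chr13:21400490-21401678, minus strand: cttaagatgGATCATCACTGTccttgggtg
ZDHHC16, cysteine at codon 185, chr10:97452902-97453537, plus strand: ctgaagatgGATCACCACTGCccctggcta
ZDHHC18, cysteine at codon 222, chr1:26848757-26850329, plus strand: gaacgatttGACCATCACTGCccctgggtg
ZDHHC9, cysteine at codon 169, chrX:129814767-129823679, minus strand: gagcgcttcGACCATCACTGCccctgggtg
ZDHHC6, cysteine at codon 129, chr10:112442315-112442344, minus strand: atgaagatgGACCATCACTGTccttggatc
ZDHHC12, cysteine at codon 141, chr9:128721743-128721772, minus strand: cgccgctacGACCACCACTGCccctggatg

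Of the 22 acyltransferase coding sequences, 21 held the 4 codons. ZDHHC13, an enzyme with ankyrin repeats, did not hold these 4 in a row, and is known to carry a variant of the motif. Over the 30 bases, ZDHHC2 matched ZDHHC20 at 26 positions, ZDHHC6 and ZDHHC16 matched ZDHHC20 at 25 and 24 positions, ZDHHC18 and ZDHHC9 at 19 each, and ZDHHC12 at 17. Of the genes tested and not called, ZDHHC7 and ZDHHC3 matched ZDHHC20 at 25 and 24, and the others with the motif at 14 to 22. ZDHHC18 and ZDHHC9 matched each other at 27 of the 30, and their mRNA went opposite ways after silencing. Whether likeness in these bases bears on the mRNA changes was not tested.

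The libraries were of like size, with normalized counts (values scaled by 1 factor per library and not divided by gene length) that summed to between 17083277 and 18007664. The sums were 17962383 to 18007664 in the shControl and 17083277 to 17746705 in the shZDHHC20 group, which did not overlap. Over 4136 genes that averaged 1000 or more, the SD of the log2 difference between a pair of libraries was 0.0674 to 0.0718 within the shControl group and 0.0722 between shZDHHC20 replicates 1 and 3. It was 0.178 and 0.198 between shZDHHC20 replicate 2 and these, so replicate 2 stood apart from its group. Of the markers of the carcinoma line, KRT8, KRT18 and KRT19 were abundant, with shControl means of 56187, 19660.2 and 5917, while KRT7 was low, at 86.5. EPCAM was low in the shControl group, at 72.4, and rose to 525 in the shZDHHC20 group (log2 fold change 2.89, limma adjusted p = 6.7e-07). The summed markers of acinar and endocrine cells stayed at or below 11.3 and 6.36 in every library, and those of leukocytes and endothelial cells at or below 45.1 and 10.1. The fibroblast list, of which 3 of 5 genes were in the table, summed to 3885 to 3961 in the shControl and 3115 to 3384 in the shZDHHC20 libraries. Its COL1A1 accounts for nearly all of this, with means of 3931 and 3260. The part of these cell type markers in the results below was not tested.

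Silencing lowered ZDHHC20 mRNA to 42.6% of its control level, and 6 further acyltransferase genes passed the test. ZDHHC16, ZDHHC18 and ZDHHC6 rose, and ZDHHC9, ZDHHC12 and ZDHHC2 fell. No accessory gene and no thioesterase gene passed. In limma's test, with Benjamini-Hochberg adjustment over all 22189 genes and an adjusted p under 0.05, this made 7 of the 33 members (21.2%), against 11.5% of all genes tested. The background was 21.7% among the 10908 genes that averaged 100 or more, where 29 members lay and 7 of them passed (24.1%), so the share of members was close to that of other genes at such levels. In each direction, 3 members were higher and 4 lower, against 4.61% and 6.84% of all genes tested and 8.41% and 13.3% of those that averaged 100 or more. The median log2 fold change of the members was 0.03, and that of all genes tested was 0.01. For 13 members (39.4%) the groups did not overlap, against 28.6% of all genes tested and 42.6% of those that averaged 100 or more. All these counts include ZDHHC20, the gene that was silenced. Without it, 6 of 32 members passed (18.8%), 3 higher and 3 lower, and the groups did not overlap for 12 (37.5%).

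**Figure D1:**
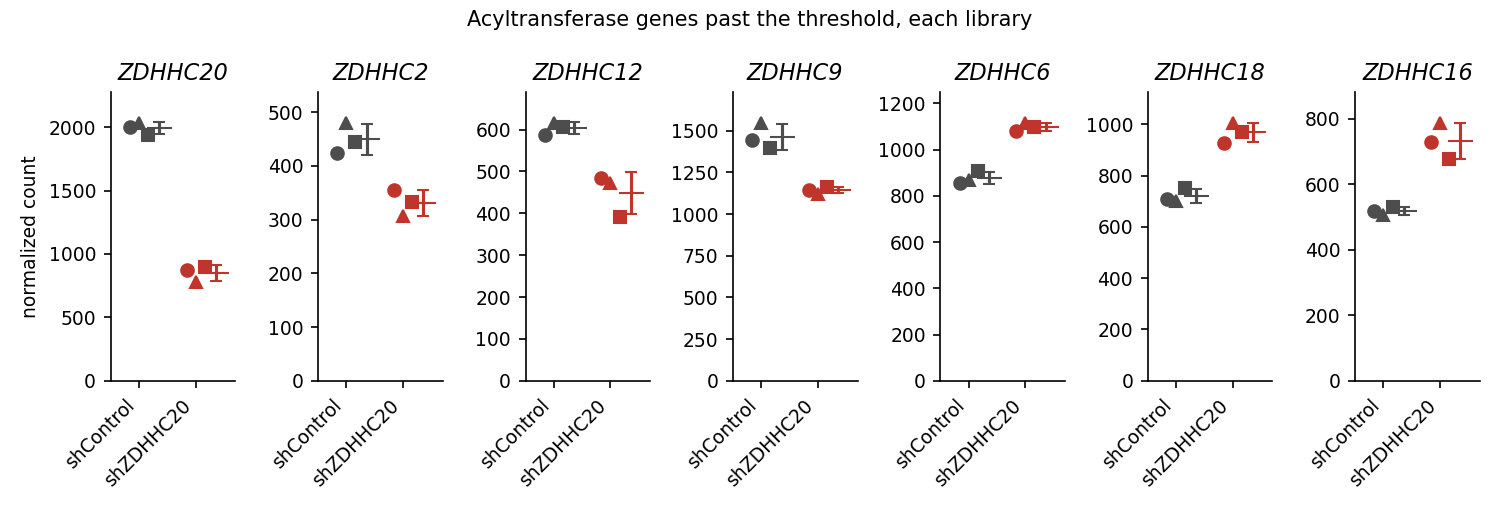
Normalized count (y axis, each panel from 0) of the 7 acyltransferase genes past the threshold in each of the 3 shControl and 3 shZDHHC20 libraries; points are libraries, with a symbol for each replicate number, and the dash beside them is the group mean with its SD. The groups do not overlap in any panel, and ZDHHC20 falls from a mean of 1991 to 848, more than any other gene shown.

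ZDHHC20 (ENSG00000180776, chr13:21372573-21459370 on GRCh38, minus strand) was the check of the labels. Normalized counts were 2001, 2033 and 1940 in the shControl libraries and 872, 779 and 893 in the shZDHHC20 libraries. All shZDHHC20 libraries lay far below all shControl libraries. The means were 1991 ± 46.9 and 848 ± 61.0 (SD, n = 3), with a log2 fold change of -1.23 (SE 0.0649, limma adjusted p = 4.36e-07). In bulk RNA, fewer cells with the transcript and less transcript per cell cannot be told apart, here and for every gene below. ZDHHC20P1 and ZDHHC20-IT1, a pseudogene and an RNA within an intron, had means no higher than 1.

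Divided by exon length, the level of ZDHHC20 was 357 ± 8.42 per kilobase in the shControl group and 152 ± 10.9 per kilobase in the shZDHHC20 group (SD, n = 3). Its share of the summed per-kilobase level of the 21 acyltransferase genes was 9.32%, 9.62% and 9.01% in the shControl libraries and 4.26%, 3.77% and 4.36% in the shZDHHC20 libraries. The groups did not overlap, and the difference between them was -5.19 percentage points. The exact two-sided permutation test gave p = 0.1, the smallest that 3 libraries against 3 allow. ZDHHC20 thereby moved from rank 4 to rank 10 in level per kilobase. In the control libraries it stood behind ZDHHC7 (16.1%), a Golgi enzyme with many substrates, ZDHHC5 (13.1%), an enzyme of the plasma membrane, and ZDHHC4 (10.0%). These kept ranks 1, 2 and 3 after silencing, and ZDHHC6 (7.95%) and ZDHHC16 (6.45%) then followed.

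**Figure D2:**
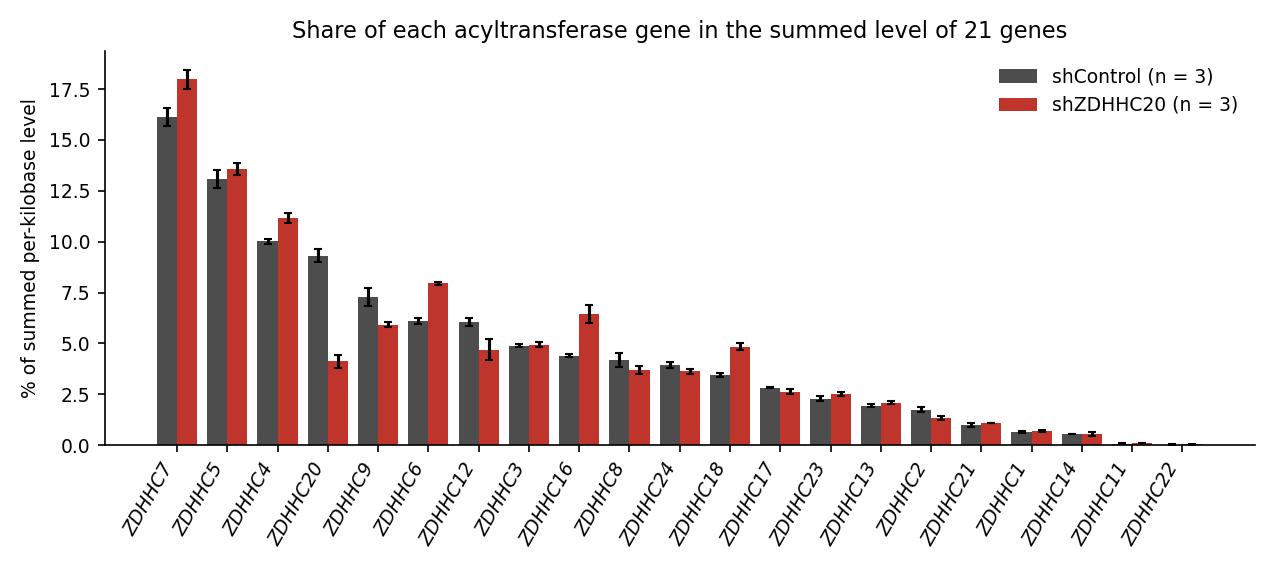
Share (%, y axis) of each acyltransferase gene in the summed per-kilobase level of 21 genes, with bars for the group means from 0, and error bars for the SD over 3 libraries. ZDHHC20 goes from 9.31% in shControl to 4.13% in shZDHHC20, ZDHHC6 from 6.11% to 7.95% and ZDHHC16 from 4.40% to 6.45%.

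The summed level of the whole family per kilobase was 3853, 3791 and 3865 in the shControl libraries and 3677, 3708 and 3678 in the shZDHHC20 libraries. Every shZDHHC20 library lay below every shControl library, and the mean was 96.1% of control (exact two-sided permutation p = 0.1). Without ZDHHC20 the sums were 3494, 3426 and 3517 in the shControl and 3521, 3569 and 3518 in the shZDHHC20 libraries. These means stood at 101.6% of control, and the groups only just failed to overlap (exact two-sided permutation p = 0.1). Neither family sum was divided by the total of all normalized counts in its library. That total was also lower in every shZDHHC20 library (17083277 to 17746705) than in every shControl library (17962383 to 18007664). The summed level per kilobase without ZDHHC20 was thus higher by 56.8, while that of ZDHHC20 itself dropped by 205.

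Among the genes that rose, ZDHHC16 had the largest log2 fold change of those past the threshold. ZDHHC16 (ENSG00000171307, chr10:97446131-97457370, plus strand) encodes an enzyme of the endoplasmic reticulum that palmitoylates ZDHHC6. Normalized counts were 519, 507 and 532 in the shControl libraries and 730, 788 and 678 in the shZDHHC20 libraries. The lowest silenced library was well above the highest control. The mean went from 519 ± 12.2 to 732 ± 54.8 (SD, n = 3), with a log2 fold change of 0.49 (SE 0.0757, limma adjusted p = 0.000926).

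ZDHHC18 (ENSG00000204160, chr1:26826710-26857602, plus strand) encodes a Golgi enzyme related to ZDHHC9 and ZDHHC14. Normalized counts were 707, 700.03 and 752 in the shControl libraries and 929, 1005 and 971 in the shZDHHC20 libraries. The groups were again well apart. The mean went from 720 ± 28.1 to 968 ± 38.3 (SD, n = 3), with a log2 fold change of 0.43 (SE 0.066, limma adjusted p = 0.000965). Of its relatives in sequence, ZDHHC9 fell, and ZDHHC14 was at 239 ± 7.07 and 228 ± 42.4 (SD, n = 3) and did not pass (log2 fold change -0.09, limma adjusted p = 0.75).

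ZDHHC6 (ENSG00000023041, chr10:112424428-112446917, minus strand) encodes an enzyme of the endoplasmic reticulum that works with SELENOK and acts on calnexin, the transferrin receptor and inositol trisphosphate receptors. Normalized counts were 858, 871 and 907 in the shControl libraries and 1081, 1116 and 1098 in the shZDHHC20 libraries. The silenced libraries differed little among themselves and all lay above the controls. The mean went from 879 ± 25.5 to 1098 ± 17.3 (SD, n = 3), with a log2 fold change of 0.32 (SE 0.0602, limma adjusted p = 0.00363). Exons of ZDHHC6 overlap those of ACSL5 on the other strand, and the sources used here do not say whether reads were counted by strand. ACSL5 had means of 11.1 and 7.63, far below those of ZDHHC6.

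Among the genes that fell besides ZDHHC20, ZDHHC9 had the highest level, both in normalized counts and per kilobase. ZDHHC9 (ENSG00000188706, chrX:129803288-129843909, minus strand) encodes the Golgi enzyme that, bound to GOLGA7, palmitoylates HRAS and NRAS. Normalized counts were 1443, 1547 and 1399 in the shControl libraries and 1146, 1122 and 1160 in the shZDHHC20 libraries. The groups did not overlap. The mean went from 1463 ± 76.0 to 1143 ± 18.9 (SD, n = 3), with a log2 fold change of -0.36 (SE 0.0599, limma adjusted p = 0.00182).

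ZDHHC12 (ENSG00000160446, chr9:128720869-128724127, minus strand) encodes an enzyme known to modify gephyrin. Normalized counts were 587, 616 and 606 in the shControl libraries and 483, 471 and 392 in the shZDHHC20 libraries. The groups did not overlap, with shZDHHC20 replicate 3 the lowest. The mean went from 603 ± 14.5 to 449 ± 49.8 (SD, n = 3), with a log2 fold change of -0.43 (SE 0.0886, limma adjusted p = 0.00663). Its exons overlap PKN3 on the other strand, for which the log2 fold change was 0.12 (limma adjusted p = 0.377). PKN3 had means of 755 in the shControl and 819 in the shZDHHC20 group, above those of ZDHHC12. The part of this overlap in the values was not tested.

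ZDHHC2 (ENSG00000104219, chr8:17156029-17224799, plus strand) encodes an enzyme that modifies CKAP4 and the tetraspanins CD9 and CD151. Normalized counts were 423, 480.1 and 445 in the shControl libraries and 355, 307 and 332 in the shZDHHC20 libraries. All silenced libraries were below all controls. The mean went from 449 ± 28.6 to 331 ± 24.0 (SD, n = 3), with a log2 fold change of -0.44 (SE 0.0895, limma adjusted p = 0.00629). Without shControl replicate 2 it did not pass (log2 fold change -0.39, limma adjusted p = 0.0528).

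Of the 7 genes, 6 rested on the modelling of the variance by level. Without that trend ZDHHC20 passed (limma adjusted p = 0.0162), and the others had adjusted p from 0.0614 to 0.126 at the same fold changes. When the criteria were an unadjusted p below 0.01 together with a change of 1.5-fold or more, 544 genes passed (2.45%), and ZDHHC20 was the member among them. Of the 7, then, ZDHHC20 differed most, and the other 6 had means of 73.8% to 141% of control.

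**Figure D3:**
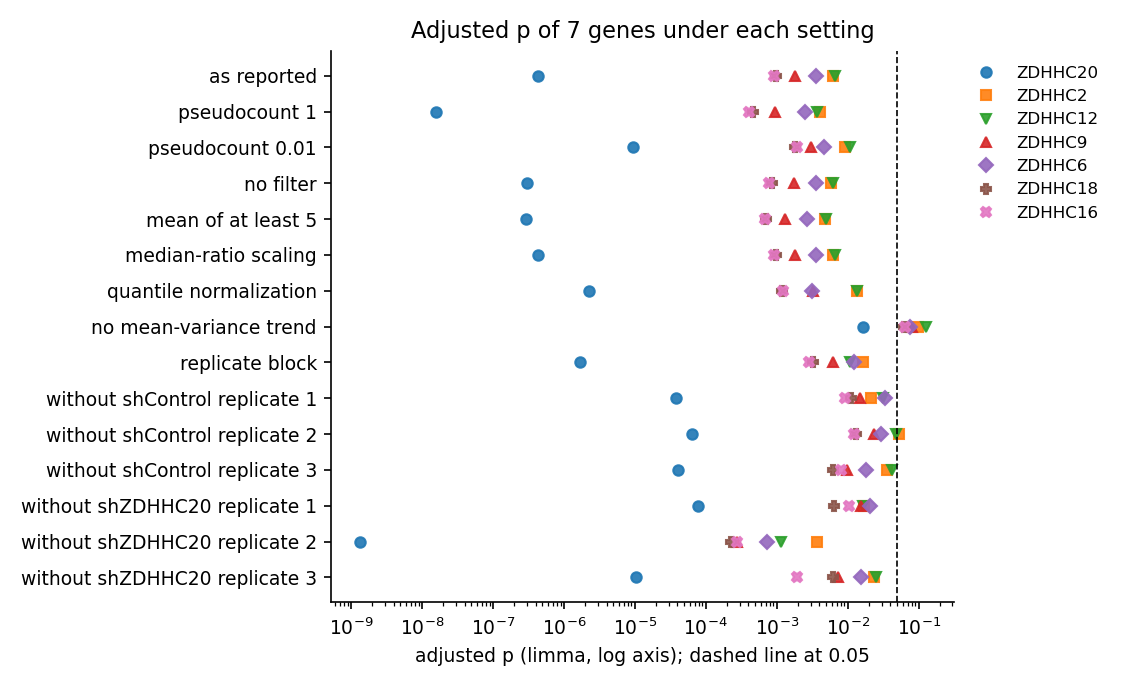
Limma adjusted p (x axis, log scale, dashed line at 0.05) of the 7 genes that passed, with a point for each of the 15 settings tried. ZDHHC20 lies left of the line in every setting; the other 6 cross it without the mean-variance trend, and ZDHHC2 also without shControl replicate 2.

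The other 14 acyltransferase genes in the table did not pass. For 9 of them the 95% interval of the fold change lay within 1.25-fold either way. ZDHHC5, whose product modifies flotillin-2, had normalized counts of 2810, 2591 and 2771 in the shControl and 2715, 2668 and 2761 in the shZDHHC20 libraries. The silenced libraries lay inside the range of the controls, and the interval of the fold ran from 0.923 to 1.08. The close relatives ZDHHC3 and ZDHHC7, Golgi enzymes of broad substrate range, had log2 fold changes of -0.04 and 0.10. ZDHHC7 had the highest level per kilobase of the family, at 619 ± 23.2 in the shControl and 663 ± 17.6 in the shZDHHC20 group (SD, n = 3). Its groups did not overlap, at 2342 to 2520 and 2543 to 2680 normalized counts, yet it did not pass (limma adjusted p = 0.27).

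Without ZDHHC20, 6 of 20 acyltransferase genes tested passed (30%), and the groups did not overlap for 11 (55%). Of all genes tested 11.5% passed and 28.6% did not overlap, and of those that averaged 100 or more 21.7% and 42.6%. Besides ZDHHC7, the groups of 4 more genes did not overlap without passing the test. ZDHHC8, the close relative of ZDHHC5, had normalized counts of 972, 827 and 865 in the shControl and 743, 800.1 and 719 in the shZDHHC20 libraries (log2 fold change -0.23, limma adjusted p = 0.0697). It passed without shZDHHC20 replicate 2, the library that stood apart, at a log2 fold change of -0.28 (limma adjusted p = 0.0104). ZDHHC24 had means of 949.9 ± 35.4 and 838 ± 27.1 (SD, n = 3), with a log2 fold change of -0.18 (limma adjusted p = 0.093). For ZDHHC17, which carries ankyrin repeats and modifies huntingtin, the means were 957 ± 12.3 and 856 ± 35.5 (SD, n = 3), with a log2 fold change of -0.16 (limma adjusted p = 0.13). ZDHHC4, which modifies CD36, had means of 1368 ± 24.0 and 1465 ± 32.7 (SD, n = 3), with a log2 fold change of 0.10 (limma adjusted p = 0.306).

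The groups overlapped for the remaining acyltransferases. ZDHHC13, ZDHHC21, which modifies FYN, and ZDHHC23 had log2 fold changes of 0.05, 0.06 and 0.09, with means in the shControl group of 579, 365 and 626 normalized counts. The last 3 genes were low. ZDHHC1 had means of 88.8 ± 5.38 and 91.1 ± 9.20 (SD, n = 3) and a fold interval from 0.813 to 1.29. ZDHHC11 was at 30.3, 10.04 and 26.0 in the shControl and 26.5, 26.3 and 29.8 in the shZDHHC20 libraries (log2 fold change 0.46, limma adjusted p = 0.53). Its value is uncertain, because ZDHHC11B is a near copy (means of 29.1 and 34.4) and its exons overlap BRD9. ZDHHC22 was at 1.01 to 5.02 in the shControl and 4.70 to 6.74 in the shZDHHC20 libraries, with a fold interval from 0.647 to 6.72, too wide to tell a change from none.

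**Figure D4:**
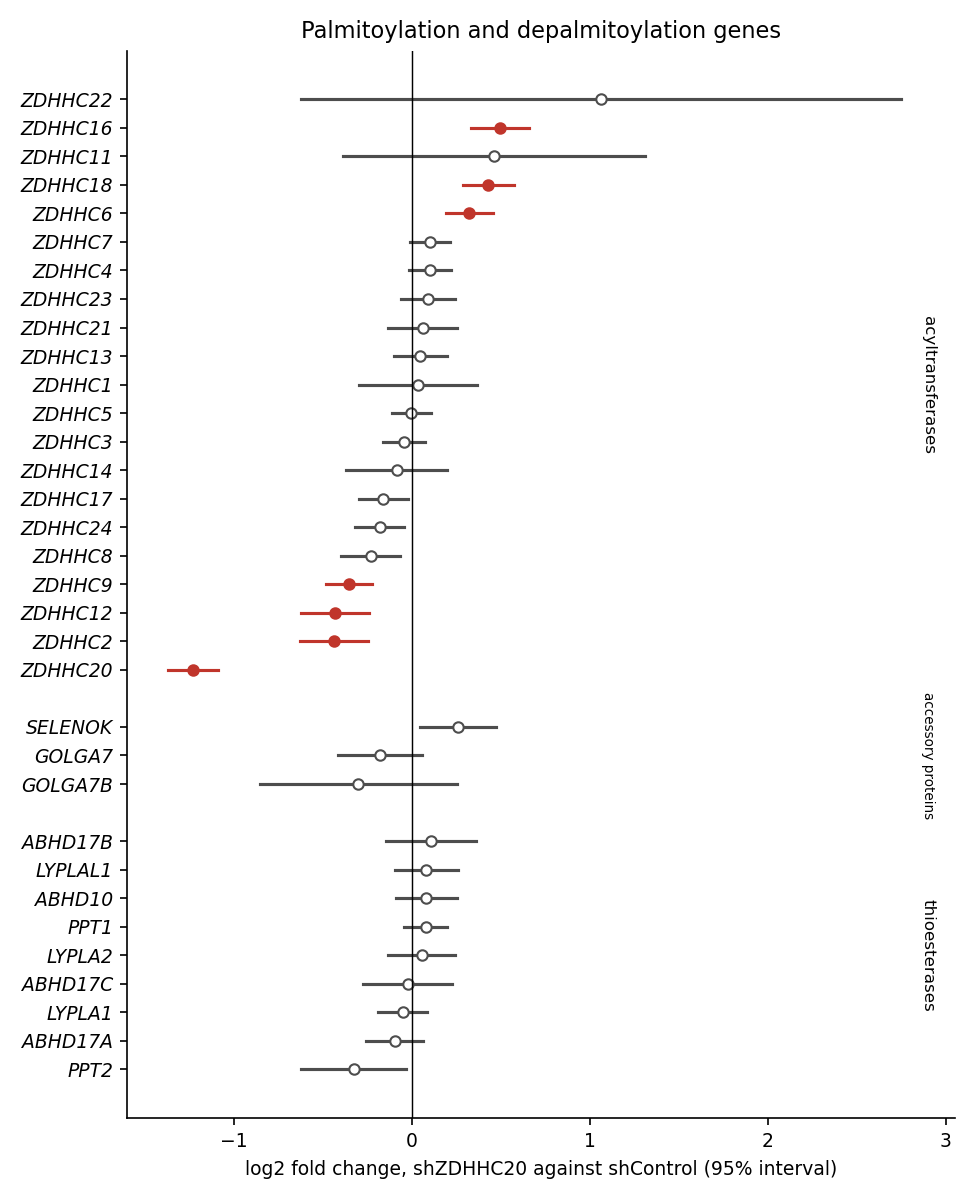
Log2 fold change of shZDHHC20 against shControl (x axis) with its 95% interval for the 33 genes, grouped as acyltransferases, accessory proteins and thioesterases; filled points passed the adjusted p threshold of 0.05. ZDHHC20 is farthest to the left at -1.23, and the thioesterases lie between -0.33 and 0.11.

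The accessory proteins stabilise particular acyltransferases. SELENOK, the partner of ZDHHC6, had normalized counts of 257, 272 and 312 in the shControl and 349, 336 and 318 in the shZDHHC20 libraries. The groups did not overlap, at means of 280.4 ± 28.8 and 334 ± 15.7 (SD, n = 3), but the gene did not pass (log2 fold change 0.26, limma adjusted p = 0.124). The ratio of ZDHHC6 to SELENOK per kilobase was 1.82 ± 0.129 in the shControl and 1.90 ± 0.104 in the shZDHHC20 group (SD, n = 3, exact two-sided permutation p = 0.5).

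GOLGA7, the partner of ZDHHC9, had normalized counts of 479, 386 and 477 in the shControl and 372, 361 and 451 in the shZDHHC20 libraries. The groups overlapped (log2 fold change -0.18, limma adjusted p = 0.356). The ratio of ZDHHC9 to GOLGA7 per kilobase was 1.57 ± 0.283 and 1.38 ± 0.144 (SD, n = 3, exact two-sided permutation p = 0.6). GOLGA7B, which binds ZDHHC5, was low, with means of 39.2 ± 9.55 and 31.3 ± 2.53 (SD, n = 3) and a fold interval from 0.553 to 1.19. For none of the 3 accessory genes was the interval within 1.25-fold either way.

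The thioesterase genes, all of which averaged 100 or more, showed no change past the threshold. Limma called 0 of 9, beside 11.5% of all genes tested and 21.7% of those that averaged 100 or more. At an unadjusted p under 0.05 there was 1 of 9, beside 23.8% of all genes tested and 39.0% at such levels. The groups overlapped in all 9, while they did not overlap for 28.6% of all genes tested and 42.6% at such levels. For 7 of the 9, the 95% interval of the fold lay within 1.25-fold either way. The summed level of the thioesterases per kilobase was 101.3% of control (exact two-sided permutation p = 0.3). LYPLA1 and LYPLA2, the cytosolic acyl-protein thioesterases APT1 and APT2, had log2 fold changes of -0.05 and 0.05. LYPLA2, which acts on ZDHHC6, had normalized counts of 1014, 977 and 1138 in the shControl and 1004, 1242 and 1010 in the shZDHHC20 libraries. Its highest value was that of shZDHHC20 replicate 2. LYPLAL1, a relative of both, had means of 450 ± 28.3 and 476 ± 24.7 (SD, n = 3).

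The ABHD17 enzymes are membrane-bound thioesterases that act on NRAS. ABHD17A, the most abundant in normalized counts of the 3, was at 1409, 1391 and 1344 in the shControl and 1252, 1453 and 1181 in the shZDHHC20 libraries. Replicate 2 was the silenced library above all controls. The log2 fold change was -0.10 (limma adjusted p = 0.469), and without that replicate it was -0.18 (limma adjusted p = 0.0151). ABHD17B and ABHD17C had log2 fold changes of 0.11 and -0.03, with fold intervals from 0.902 to 1.28 and from 0.826 to 1.17.

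PPT1, the lysosomal palmitoyl-protein thioesterase, was the thioesterase gene with the most normalized counts. Its values were 2259, 2464 and 2452 in the shControl and 2576, 2419 and 2565 in the shZDHHC20 libraries, with overlapping groups (log2 fold change 0.08, limma adjusted p = 0.451). CAP1, an actin regulator on the other strand whose exons overlap PPT1, rose, with a log2 fold change of 0.33 (limma adjusted p = 0.000619). CAP1 had means of 3915 in the shControl and 4920 in the shZDHHC20 group, above those of PPT1 (2392 and 2520). The part of this overlap in the values was not tested. PPT2, also lysosomal, had normalized counts of 222, 235 and 200.2 in the shControl and 208, 177 and 144 in the shZDHHC20 libraries. It had the lowest log2 fold change of the 9, at -0.33 (limma adjusted p = 0.16), and it shares exons with the readthrough gene PPT2-EGFL8. ABHD10, a mitochondrial thioesterase, was at 574 ± 39.6 and 606 ± 32.0 (SD, n = 3), with a log2 fold change of 0.08.

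Palmitoyl-CoA, the donor of the acyl group, comes from fatty acid synthesis and activation. In the list of its supply and use, 6 of 25 genes tested fell (24%) and 0 rose, beside 6.84% lower among all genes tested. Of the 18 that averaged 100 or more, 6 fell (33.3%), beside 13.3% lower among all genes at such levels. The median log2 fold change of the 25 was -0.14. FASN, which makes palmitate, fell from 18274 ± 261 to 14862 ± 64.6 (SD, n = 3), with a log2 fold change of -0.30 (limma adjusted p = 0.00027). SCD, which desaturates palmitate and stearate, had a log2 fold change of -0.32 (limma adjusted p = 0.000639). ELOVL6, which elongates palmitate, fell from 1032 ± 38.8 to 839 ± 45.5 (SD, n = 3), with a log2 fold change of -0.30 (limma adjusted p = 0.0107). SCD did not pass with quantile normalization (log2 fold change -0.12, limma adjusted p = 0.058), nor ELOVL6 without shControl replicate 2 (0.0654) or 3 (0.0746).

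Of 17 genes tested for other enzymes that add lipids to proteins, 0 rose and 1 fell in limma's test (5.88%), beside 11.5% of all genes tested. Of the 16 that averaged 100 or more, 1 passed (6.25%), beside 21.7% of all genes at such levels. At an unadjusted p under 0.05 there were 8 of the 17 (47.1%). The share was 23.8% of all genes tested and 39.0% of those that averaged 100 or more. The median log2 fold change of the list was -0.0052. The gene that fell was PORCN, which acylates WNT ligands, with a mean of 275 ± 36.1 in the shControl and 189 ± 16.9 in the shZDHHC20 group (SD, n = 3, log2 fold change -0.53, limma adjusted p = 0.0117). It did not pass without shControl replicate 1 or 2 or without shZDHHC20 replicate 3 (limma adjusted p = 0.0843, 0.0692 and 0.0552). Of 19 other genes of the alpha/beta hydrolase domain family, to which ABHD10 and the ABHD17 genes belong, 4 fell and 0 rose (21.1%), beside 11.5% of all genes tested. Of those that averaged 100 or more 28.6% passed, beside 21.7% of all genes at such levels, and the median log2 fold change of the 19 was -0.03. ABHD2, a lipase, fell from 2331 ± 28.1 to 1806 ± 38.8 (SD, n = 3), with a log2 fold change of -0.37 (limma adjusted p = 0.000408). ABHD4 and ABHD6, enzymes of lipid signalling, had log2 fold changes of -0.61 and -0.27 (limma adjusted p = 0.0195 and 0.0209). Leaving out any shControl library but replicate 2, or shZDHHC20 replicate 1 or 3, ended the call of ABHD4 (limma adjusted p up to 0.122). That of ABHD6 ended without any of the libraries but shZDHHC20 replicate 2 (limma adjusted p up to 0.109).

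Among 54 genes for proteins known to be palmitoylated, 5 rose and 13 fell (33.3%), with a median log2 fold change of -0.10. Of the 49 that averaged 100 or more, 18 passed (36.7%), beside 21.7% of all genes at such levels. Of all genes tested 4.61% were higher and 6.84% lower, and of those that averaged 100 or more 8.41% and 13.3%. Like the other lists, this one was chosen with earlier results of these data known, so its share is no test of such proteins. EGFR, the receptor tyrosine kinase that ZDHHC20 palmitoylates, had normalized counts of 7388, 7411 and 7610 in the shControl and 5200.2, 4920.1 and 5238 in the shZDHHC20 libraries. All silenced libraries were far below all controls, with a log2 fold change of -0.55 (SE 0.045, limma adjusted p = 9.03e-06). M6PR, a receptor that carries enzymes to the lysosome, fell from 1493 ± 80.6 to 972 ± 79.7 (SD, n = 3), with a log2 fold change of -0.62 (limma adjusted p = 9.81e-05). STAT3 rose, with a log2 fold change of 0.23 (limma adjusted p = 0.00377), and YTHDF3 had means of 1829.6 ± 45.5 and 1873 ± 140.5 (SD, n = 3, limma adjusted p = 0.814).

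The substrates of the enzymes above were read next. They were named after their values were seen, except ITPR1. IFITM3, an antiviral protein that ZDHHC20 modifies, fell from 5997 ± 146 to 5066 ± 140.2 (SD, n = 3), with a log2 fold change of -0.24 (limma adjusted p = 0.00357). The substrates of ZDHHC6 did not move together. TFRC, the transferrin receptor, had a log2 fold change of -0.39 (limma adjusted p = 0.000902). ITPR1 fell from 931 ± 52.2 to 647 ± 23.4 (SD, n = 3, log2 fold change -0.52, limma adjusted p = 0.000307). ITPR2, of the same receptor family, went the other way, from 1185 ± 97.3 to 1431 ± 127 (SD, n = 3, log2 fold change 0.27, limma adjusted p = 0.0381), a call that ended on leaving out any library but shControl replicate 2 or shZDHHC20 replicate 2 (limma adjusted p up to 0.179) and with a pseudocount of 0.01 (0.0536). ITPR3 and CANX, which encodes calnexin, had log2 fold changes of -0.03 and 0.07 (limma adjusted p = 0.782 and 0.584). Without shZDHHC20 replicate 2, CANX passed at a log2 fold change of 0.15 (limma adjusted p = 0.000158).

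For ZDHHC9, the substrates HRAS and NRAS had log2 fold changes of -0.02 and 0.04 (limma adjusted p = 0.897 and 0.778). Without shZDHHC20 replicate 2, NRAS passed at a log2 fold change of 0.14 (limma adjusted p = 0.0229). Among those of ZDHHC2, CKAP4 and CD9 had log2 fold changes of -0.19 and -0.17 (limma adjusted p = 0.0212 and 0.0427). Both calls ended on leaving out any library but shZDHHC20 replicate 2 (limma adjusted p up to 0.116 and 0.168), and that of CD9 also with no filter (0.0529) and with quantile normalization (0.0694). CD151 had a log2 fold change of -0.05 (limma adjusted p = 0.777), with shZDHHC20 replicate 2 at 9584 above and replicates 1 and 3 at 7281 and 7079 below the controls of 8131 to 8254. Without that replicate CD151 passed at a log2 fold change of -0.19 (limma adjusted p = 9.7e-05). These values are of mRNA, and palmitoylation of the proteins was not measured in these libraries.

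**Figure D5:**
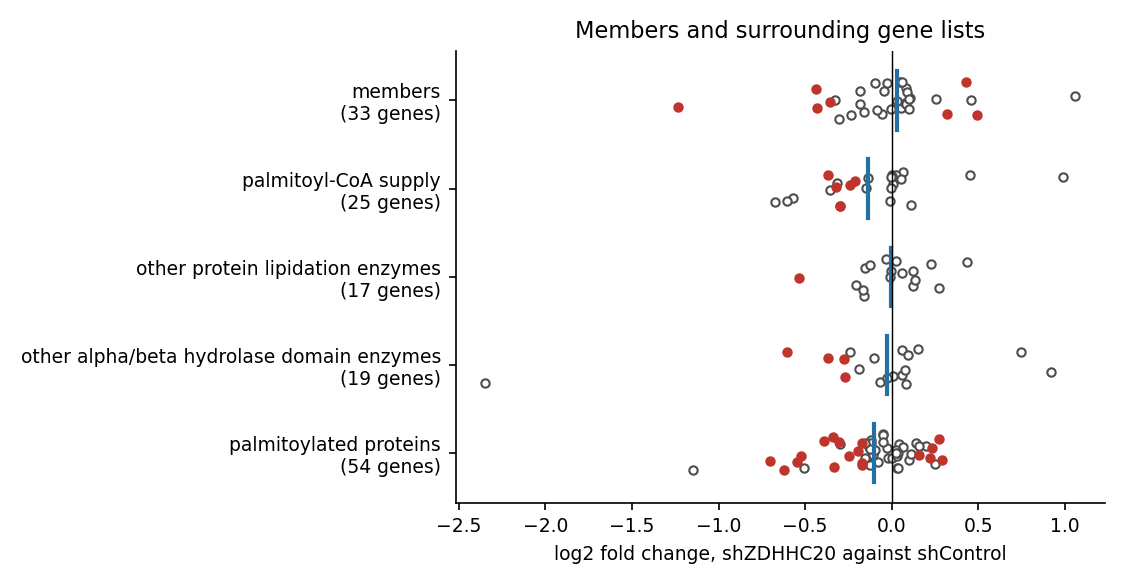
Log2 fold change of shZDHHC20 against shControl (x axis) for the genes tested in each list (rows), with a point for each gene and a bar for the median; filled points passed the adjusted p threshold of 0.05. The medians are 0.03 for the 33 members, -0.14 for the palmitoyl-CoA list and -0.10 for the palmitoylated proteins.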

How the data were processed

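The authors made the libraries from total RNA of PANC-1 cells with a directional kit. They deposited a gene table of normalized signal values. Its name gives the unit as FPKM, but every value was a whole multiple (tolerance 0.02) of the smallest value above 0 in its library, and values were not divided by gene length, so they are called normalized counts here. Aligner, counter and scaling tool are not given in the sources used here. The submitters' processing notes name hg19. The libraries held 16575546 to 18441049 such steps. Their number bears on counting error only, and the spread between libraries limits precision as well.

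The values were tested as log2(normalized count + 0.1) with limma 3.58.1 (lmFit, eBayes with a mean-variance trend) in R 4.3.3, on the 22189 genes averaging 1 or more, two-sided, with Benjamini-Hochberg adjustment and a threshold of 0.05. For low genes, fold changes on this scale can differ from the ratio of the group means in either direction. ZDHHC11 and ZDHHC22 had shZDHHC20 means of 124% and 177% of control, beside log2 fold changes of 0.46 and 1.06. Levels per kilobase used the union of exons in GENCODE 29. Coordinates are of GRCh38, matched by gene identifier only. Single values were compared by the exact permutation test over 20 splits. Scripts were tested on simulated data.

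The members and lists were chosen with earlier results of these data known. Named were all members, from every list the 3 genes lowest in adjusted p where that was under 0.05, YTHDF3, STAT3, EGFR and pseudogenes and antisense genes that overlap a member. Some overlapping coding genes and substrates were added after their values were seen. The lists hold palmitoyl-CoA supply, other lipidation enzymes, other alpha/beta hydrolases, palmitoylated proteins, other ZDHHC loci and cell type markers. Alternatives covered the pseudocount, the filter, scaling, the trend, a replicate block and each library left out.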

Additional observations from a re-analysis of the deposited data

How the results depend on the processing

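ZDHHC20 kept its direction and its call under the 14 alternatives tried, and of the other called members ZDHHC16, ZDHHC18, ZDHHC9, ZDHHC6 and ZDHHC12 kept them under all but the fit without the mean-variance trend. That fit called 1 member, 351 genes in all, 0 genes each in the palmitoyl-CoA, lipidation and hydrolase lists and 1 palmitoylated protein. Quantile normalization called 3 genes of the palmitoyl-CoA list, and reversed the small log2 fold changes of ZDHHC5 (0.025), ABHD17C (0.0034) and CD151 (0.018). The difference in the share of ZDHHC20 was -5.66 points without division by length and -4.19 points with the longest transcript. The causes were not tested.

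With each library left out in turn, 6 to 9 members passed, the lowest without shControl replicate 2, where ZDHHC2 was lost, and the highest without shZDHHC20 replicate 2, where ZDHHC8 and ABHD17A were gained (as were the substrates CANX, NRAS and CD151). All genes called ranged from 1233, without shControl replicate 1 or 3, to 4454, without shZDHHC20 replicate 2. The lists ranged from 2 to 8 genes (palmitoyl-CoA), 0 to 5 (lipidation), 1 to 4 (hydrolases) and 8 to 28 (palmitoylated proteins), and the share difference from -5.34 to -5.01 points. Uncalled log2 fold changes changed sign: ZDHHC1 (-0.026 to 0.12), ZDHHC5 (-0.040 to 0.018), ZDHHC11 (-0.031 to 0.76), ZDHHC14 (-0.17 to 0.078), ZDHHC21 (-0.017 to 0.10), LYPLA1 (-0.12 to 0.0079), LYPLA2 (-0.048 to 0.12), ABHD17C (-0.13 to 0.10), YTHDF3 (-0.0078 to 0.095), CD151 (-0.19 to 0.028), HRAS (-0.058 to 0.015) and NRAS (-0.024 to 0.14).

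Libraries of the same replicate number did not deviate together (correlations of -0.09, -0.16 and -0.08). Each deviation was taken from the mean of 3 libraries, so this cannot tell whether the numbers mark pairs. The labels do not say. With a replicate block, 7 members, 1942 genes in all, 12 palmitoylated proteins and 2 hydrolases passed, and ITPR2, CKAP4, CD9 and ABHD6 did not. The planned edgeR and DESeq2 tests were not run, because whole reads were not established for the shControl libraries. At these depths the 95% intervals of ZDHHC22 and ZDHHC11 were too wide to bound a change.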

Other observations

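Of 9 other ZDHHC loci, 3 were in the table and 1, ZDHHC11B, was tested, with a log2 fold change of 0.22 (limma adjusted p = 0.72). Of the pseudogenes and antisense genes that overlap a member, RPL12P44 (within ZDHHC3), TDGF1P5 (LYPLA1) and LYPLAL1-DT averaged under 1 and were not tested. The same held for AL157786.1 (which overlaps ZDHHC6), AC007375.2 (ZDHHC22) and RPL21P134 (ZDHHC15). RIMKLBP2, within LYPLAL1, had means of 10.4 and 21.6 (log2 fold change 1.09, limma adjusted p = 0.0891).

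Coding genes on the other strand from a member, chosen after their values were seen, had these values. CCDC191 and BBS1, whose exons overlap ZDHHC23 and ZDHHC24, had log2 fold changes of 0.18 and 0.17 (limma adjusted p = 0.515 and 0.829). EXOSC7, which overlaps ZDHHC3 outside its exons, had a log2 fold change of -0.15 (limma adjusted p = 0.253). TMEM63C, which overlaps ZDHHC22 outside its exons, had means of 41.2 and 21.7, with a log2 fold change of -0.92 (limma adjusted p = 0.0498). It passed in 6 of the 15 settings, with adjusted p up to 0.216.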
